A study of Rattus norvegicus with 12 samples.

Results

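The comparison of albiflorin with fluoxetine in stressed rats rests on 6 hippocampal RNA sequencing libraries of the 12 in the series, 3 from rats given albiflorin (CUMS-Alb) and 3 from rats given fluoxetine (CUMS-Flx). Libraries were assigned to groups by their titles, and the 15253 of 28959 table rows that averaged 0.5 FPKM or more across all 12 libraries were tested. A row is 1 gene or transcribed locus, and FPKM is its reads scaled to its length and to the library's total reads. The rows nearest to the filter had means of 0.5008 FPKM inside it and 0.4999 FPKM outside it.

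All animals were Sprague Dawley rats of a stated age of 6 to 7 weeks. The CUMS-Alb, CUMS-Flx and CUMS-Sal rats went through chronic unpredictable mild stress, a schedule of changing mild stressors used as a rodent model of depression, for 5 weeks. In the last week they received albiflorin, fluoxetine or saline for 7 days, and Ctrl-Sal rats received saline without stress. The albiflorin dose is given as 7 mg/kg/d, whereas for fluoxetine the labels of the samples state 10 mg/kg/d and the description of the series states 7 mg/kg/d, so it is not settled whether the doses were matched. The labels do not tie each library to its own animal, so each p measures the spread between libraries, part of which may be technical.

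Fluoxetine blocks the serotonin transporter, which carries released serotonin back into nerve terminals, and is prescribed against depression. Albiflorin is a glycoside of the peony plant that has been studied for antidepressant-like effects in rodents. The hippocampus, a brain region needed for forming memories, is rich in receptors for stress hormones and serotonin. The direct comparison asks where its transcripts differ between rats treated with one drug and rats treated with the other after the same stress.

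Gene names are not given for any row: the table carries Ensembl rat gene IDs or locus labels of the authors' own, and 0 of these matched the reference gene table used here. Genes are therefore described by level, length and pattern over the groups, and at most 2 rows per direction are named by ID. For the same reason neither the labelled tissue nor any cell type could be checked against marker genes, and no pathway is described. In bulk tissue, fewer cells of a type and less RNA per cell cannot be told apart.

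The hippocampi of the albiflorin and fluoxetine rats differed in 1 row by limma, and most rows were held to a small difference on the log2(FPKM + 0.5) scale. That row, ENSRNOG00000019050, was almost without reads in all CUMS-Alb libraries and was detected in every other library. A second row, Novel00085, stood at the stressed saline level with albiflorin and at about the level of 2 of the 3 unstressed libraries with fluoxetine; whether it passed the test depended on which libraries entered the estimate of the spread. No other row passed the adjusted threshold, and 25 rows differed by over 2-fold, most of them scarce.

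ENSRNOG00000019050, recovered as 2068 bp long, was measured at 0.0314, 0 and 0 FPKM in the CUMS-Alb libraries and at 3.07, 1.30 and 4.30 FPKM in the CUMS-Flx libraries. The groups did not overlap, and the CUMS-Alb values rested on 1, 0 and 0 reads against 109, 45 and 161 in CUMS-Flx. The saline libraries lay between CUMS-Alb and the 2 higher CUMS-Flx libraries, at 1.85, 1.32 and 1.16 FPKM in CUMS-Sal and 1.38, 1.14 and 1.38 FPKM in Ctrl-Sal. All 3 albiflorin libraries were thus below each of the other 9, and the fluoxetine libraries spread widely.

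On the log2(FPKM + 0.5) scale the difference of ENSRNOG00000019050, CUMS-Alb minus CUMS-Flx, was -2.62 (SE 0.28, 95% interval -3.22 to -2.02), at a Benjamini-Hochberg adjusted p of 0.00738 in the limma fit of all 12 libraries. Calls at an adjusted p under 0.05 made up 0.00656% of the 15253 rows, which is this row. Per library total, its summed reads in CUMS-Alb were 0.00332 of those in CUMS-Flx, with an exact 95% interval of 8.4e-05 to 0.019 for counting error only. Its SD over the CUMS-Flx libraries, 0.73 log2 units, exceeded that of 99.4% of tested rows. Without CUMS-Alb replicate 3 the row was no longer called (adjusted p = 0.0706, log2 difference -2.60), nor with only the CUMS-Alb and CUMS-Flx libraries in the fit (adjusted p = 0.0639); across the 18 alternatives that tested it the adjusted p was between 4.1e-05 and 0.0706. The log2 difference depends on the value added to FPKM, and was -4.62 with 0.1 and -1.86 with 1 in place of 0.5, both called.

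Such a near absence of reads in one drug group was rare. Of the tested rows, 1 had at most 1 read in each CUMS-Alb library and at least 10 in every CUMS-Flx library. It is ENSRNOG00000019050 itself, so this count adds no separate evidence for that row. The reverse, at most 1 read in each CUMS-Flx library and at least 10 in every CUMS-Alb library, was found in 0 rows. With 0 reads in all libraries of one drug and at least 1 in every library of the other, 0 rows were found in either direction.

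Set against stressed saline rats, ENSRNOG00000019050 differed by -1.91 in CUMS-Alb (SE 0.28, adjusted p = 0.2) and by 0.70 in CUMS-Flx (SE 0.28, adjusted p = 0.439), both on the log2(FPKM + 0.5) scale. These comparisons share the CUMS-Sal libraries. Neither passed the limma test over all rows, and the call was made in the direct comparison of the drugs.

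**Figure D1:**
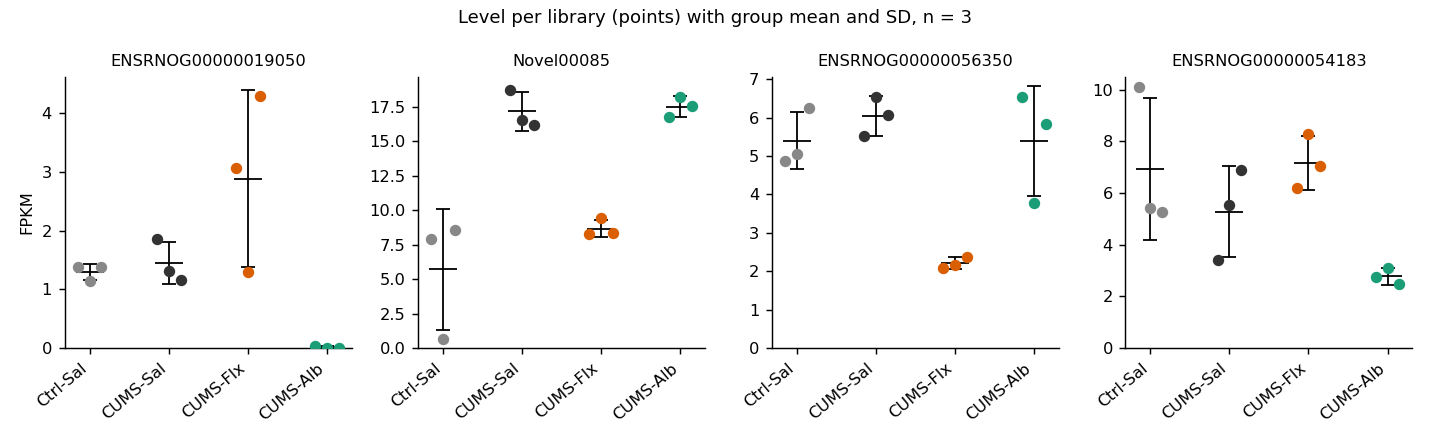
FPKM of 4 rows in each of the 12 libraries (points) by group, with the group mean and SD (n = 3). ENSRNOG00000019050 lies at 0 to 0.0314 FPKM in CUMS-Alb, and Novel00085 lies at 8.29 to 9.42 FPKM in CUMS-Flx and 16.7 to 18.2 in CUMS-Alb.

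Novel00085, a locus without an Ensembl ID recovered as 1727 bp long, was measured at 16.7, 18.2 and 17.5 FPKM in CUMS-Alb and at 8.29, 9.42 and 8.31 FPKM in CUMS-Flx. The groups did not overlap and each spread little, at 17.5 ± 0.752 against 8.67 ± 0.645 FPKM (SD, n = 3). These levels rested on 446 to 539 reads per library in CUMS-Alb and 246 to 272 in CUMS-Flx, so the row was well covered. Per library total its summed reads were 2.03 times as high in CUMS-Alb, with an exact 95% interval of 1.86 to 2.21 for counting error.

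The saline groups placed Novel00085 differently for the 2 drugs. Stressed saline libraries held 18.8, 16.5 and 16.2 FPKM, around the range of the albiflorin libraries. Unstressed libraries held 7.94, 0.666 and 8.54 FPKM, and replicates 1 and 3 lie beside the fluoxetine libraries while Ctrl-Sal replicate 2 lies far below all others. Against CUMS-Sal the log2 difference was 0.03 in CUMS-Alb and -0.94 in CUMS-Flx, each with an SE of 0.58, and neither was called (adjusted p = 1 and 0.607).

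In the fit of all 12 libraries Novel00085 was not called between the drugs. Its log2 difference, CUMS-Alb minus CUMS-Flx, was 0.98 with an SE of 0.58 and a 95% interval of -0.30 to 2.25 (adjusted p = 0.955). The 4 groups share 1 estimate of the spread in this fit, which includes Ctrl-Sal replicate 2. Without Ctrl-Sal replicate 2 the SE was 0.08 and the interval 0.81 to 1.14 (adjusted p = 0.000282). The row was also called with only the 3 stressed groups in the fit (adjusted p = 0.000756) and with only CUMS-Alb and CUMS-Flx (adjusted p = 0.0048). The first and second of these fits were chosen after seeing the data, and the last was planned. By limma-voom on the recovered reads of all 12 libraries the row was not called (log2 difference 1.02, adjusted p = 0.908), and across 19 alternatives its adjusted p was between 0.000282 and 1.

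By limma p in the fit of all 12 libraries, Novel00085 ranked 1871. ENSRNOG00000056350 ranked 2 and was the highest ranked in the direction of CUMS-Alb. It held 6.53, 3.79 and 5.85 FPKM in CUMS-Alb and 2.09, 2.15 and 2.38 FPKM in CUMS-Flx. The groups did not overlap, which the rule for naming this row required. The row is only 139 bp long, and these values are 14, 9 and 14 reads against 5, 5 and 6. CUMS-Sal, at 6.05 ± 0.518 FPKM, and Ctrl-Sal, at 5.39 ± 0.741 FPKM (SD, n = 3), lay near CUMS-Alb, so the fluoxetine group was the one that stood apart.

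The log2 difference of ENSRNOG00000056350 was 1.09 (SE 0.16, adjusted p = 0.131), which did not pass the limma test. Its summed reads per library total were 2.42 times as high in CUMS-Alb, with an exact 95% interval of 1.31 to 4.66 for counting error. The row was named for its small p among 15253 rows, a choice that this interval leaves out. Without CUMS-Alb replicate 2, the lowest albiflorin library, it was called (log2 difference 1.30, adjusted p = 0.00544); the alternatives gave adjusted p values between 0.00544 and 0.982.

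ENSRNOG00000054183, the next row lower in CUMS-Alb, held 2.76, 3.11 and 2.47 FPKM in CUMS-Alb and 6.19, 8.27 and 7.05 FPKM in CUMS-Flx. It is 94 bp long. The values are 4, 5 and 4 reads against 10, 13 and 12, without overlap, which the rule for naming this row required. CUMS-Sal stood between, at 5.28 ± 1.77 FPKM, and Ctrl-Sal reached from 5.28 to 10.1 FPKM. The log2 difference between the drugs was -1.22 (SE 0.25, adjusted p = 0.62); the row was called only with CUMS-Alb and CUMS-Flx alone in the fit (adjusted p = 0.0245), and elsewhere its adjusted p reached 1.

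**Figure D2:**
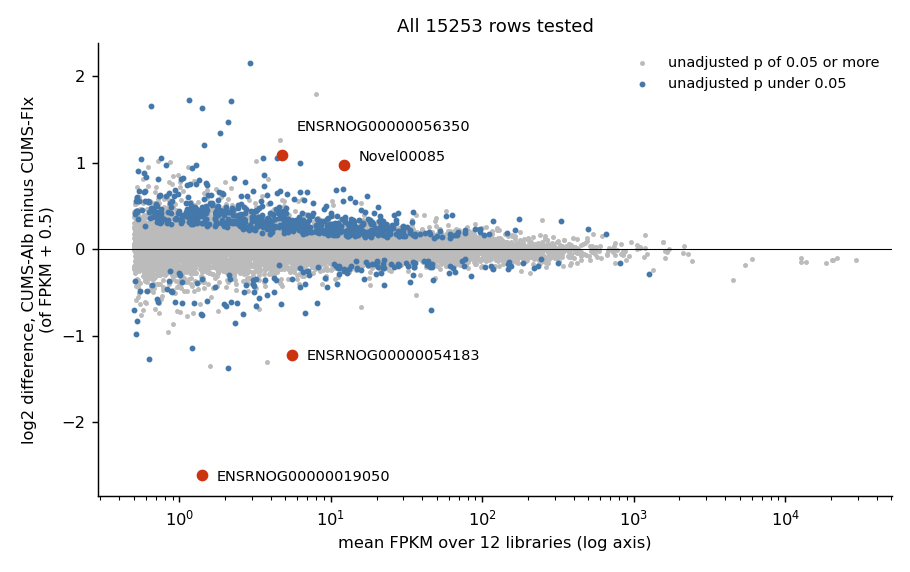
Log2 difference of FPKM + 0.5, CUMS-Alb minus CUMS-Flx, against the mean FPKM over 12 libraries (log axis) for the 15253 rows tested, with the 4 named rows in red. ENSRNOG00000019050 lies lowest, at -2.62, and the cloud narrows as the level rises.

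Differences of more than 1.5-fold between the drugs, on the log2(FPKM + 0.5) scale, were found in 147 rows, 99 higher and 48 lower in CUMS-Alb, and most of these were thinly covered. Their median length was 489 bp against 2127 bp for all tested rows, and 104 of the 147 were at most 1000 bp long. A difference of over 2-fold was found in 25 rows, 18 higher and 7 lower in CUMS-Alb, of which 23 had a mean under 5 FPKM and 10 averaged under 10 reads per library. No row of 20 FPKM or more differed by over 2-fold.

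Well covered rows with large differences were few. Of the rows differing by over 1.5-fold, 29 averaged at least 50 reads per drug library. In 18 of these the groups did not overlap, with 13 higher and 5 lower in CUMS-Alb. The groups did not overlap in 78 of all 147 rows over 1.5-fold and in 13.7% of all tested rows. Rows chosen for a large difference tend to be without overlap by that choice, so these counts are a description. Over the 13 higher rows, chosen for their difference between the drugs, the median log2 difference from CUMS-Sal was 0.18 in CUMS-Alb and -0.53 in CUMS-Flx. Over the 5 lower rows it was -0.41 in CUMS-Alb and 0.58 in CUMS-Flx. Against Ctrl-Sal, the medians were 0.39 in CUMS-Alb and -0.26 in CUMS-Flx over the higher rows and -0.43 and 0.52 over the lower ones. Over all tested rows the medians were -0.01 and -0.05 against CUMS-Sal and 0.09 and 0.05 against Ctrl-Sal. As medians, fluoxetine lay farther from stressed saline than albiflorin did over both the higher and the lower rows. From unstressed saline it lay nearer than albiflorin over the higher rows and farther over the lower ones. These rows were chosen on the drug libraries, and the comparisons share their saline libraries, so the values are given side by side only.

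For most rows the data bound the difference between the drugs. The 95% interval of CUMS-Alb minus CUMS-Flx, taken row by row without adjustment for the number of rows, lay wholly within 2-fold in 14849 rows (97.4%) and wholly within 1.5-fold in 13018 rows (85.3%). In 404 rows (2.65%) it reached 2-fold, so that a 2-fold difference is not set aside there by these libraries. The median half-width of the interval was 0.25 log2 units, a factor of 1.19.

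How closely a row was bounded followed its level and length. Among rows of 0.5 to 1 FPKM, 54.4% had an interval within 1.5-fold and 9.85% one that reached 2-fold. Among rows of 1 to 5 FPKM the shares were 73.9% and 4.53%, and among rows of 5 to 20 FPKM 94.7% and 0.62%. Rows of 20 to 100 FPKM had 97.9% within 1.5-fold, and rows of 100 FPKM or more 98.7%. By length, 14.03% of rows up to 1000 bp had an interval reaching 2-fold and 0.328% of rows over 4000 bp did, so short and scarce transcripts were bounded least.

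**Figure D3:**
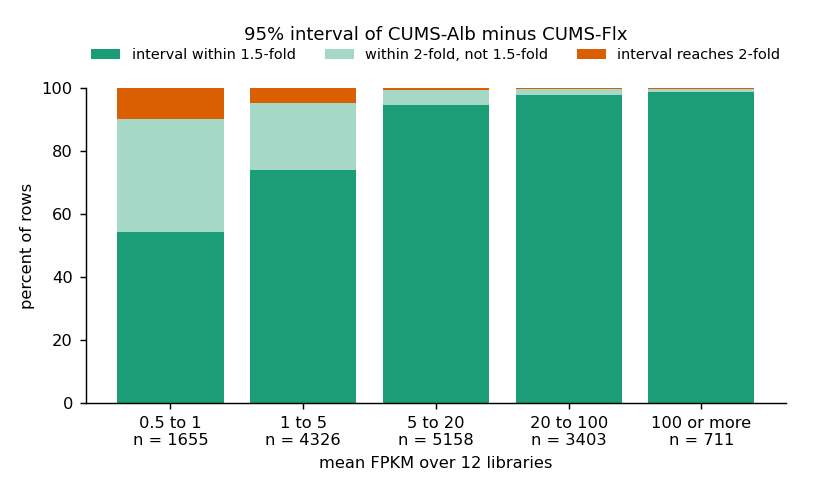
Percent of tested rows by mean FPKM whose 95% interval of CUMS-Alb minus CUMS-Flx lay within 1.5-fold, within 2-fold or reached 2-fold. Intervals are on the log2(FPKM + 0.5) scale. The share within 1.5-fold rises from 54.4% of rows at 0.5 to 1 FPKM to 98.7% at 100 FPKM or more.

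At an unadjusted p under 0.05, 759 rows (4.98%) differed between the drugs by limma, with 617 (4.05%) higher and 142 (0.931%) lower in CUMS-Alb. The libraries did not overlap in 2094 rows (13.7%), with 1616 (10.6%) higher and 478 (3.13%) lower. None of these rows except ENSRNOG00000019050 passed the adjusted threshold, so they are described and not counted as changed.

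The balance of higher and lower rows is given relative to the median difference of all tested rows, which was 0.04 log2 units. With each library shifted to a median deviation of 0, 353 rows were higher and 313 lower. Quantile normalization gave 309 and 305. Both scalings bring the overall difference to about 0 by construction, so they give the counts relative to that median and do not show which scaling is right.

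**Figure D4:**
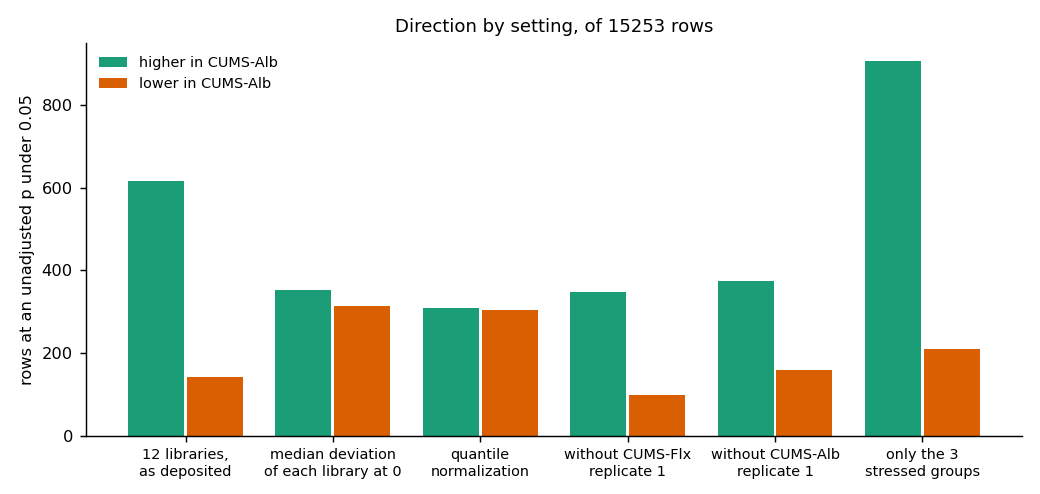
Number of the 15253 rows at an unadjusted p under 0.05 that were higher or lower in CUMS-Alb than in CUMS-Flx, under 6 settings. The counts of 617 higher and 142 lower become 353 and 313 once the median deviation of each library is set to 0. That scaling brings the median difference, not the counts, to about 0 by construction.

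CUMS-Flx replicate 1 stood apart from the other drug libraries in the same direction. Its values were the lowest of the 6 drug libraries in 35.9% of rows, against 10.2% to 16.3% for the others. CUMS-Alb replicate 1 was the highest of the 6 in 26.9% of rows, against 12.4% to 16.6%. On the first principal component of the 6 libraries, which held 29.9% of their variance, these 2 libraries lay at the ends. They lay at -22.4 and 15.7, and the other 4 between -3.9 and 5.3. On the second component, which held 18.8%, CUMS-Flx replicate 2 lay at -18.5 and the other libraries between -3.6 and 8.6. Without CUMS-Flx replicate 1 the unadjusted counts were 347 higher and 99 lower with a median difference of 0.02, and without CUMS-Alb replicate 1 they were 375 and 160.

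The most abundant transcripts moved with that library. The 9 rows that each took over 1% of all reads are 681 to 1830 bp long and together held 18.8%, 15.5% and 15.3% of a CUMS-Flx library's reads, against 14.6%, 15.01% and 15.6% in CUMS-Alb. CUMS-Flx replicate 1 was highest and the other CUMS-Flx libraries lay within the range of CUMS-Alb. Group means were 15.1% ± 0.485 for CUMS-Alb and 16.5% ± 1.99 for CUMS-Flx (SD, n = 3), a difference of -1.46 percentage points, or -0.32 without CUMS-Flx replicate 1. By a two-sided exact permutation test p was 0.3, before and after Benjamini-Hochberg adjustment over 3 comparisons, where 3 against 3 libraries allow no p below 0.1.

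Row by row, the 9 abundant transcripts were lower in CUMS-Alb by log2 differences of -0.16 to -0.10, and by -0.20 to -0.14 with median deviations set to 0. Without CUMS-Flx replicate 1 the differences were smaller, from -0.06 to 0.04, and 8 of the 9 rows were still lower in CUMS-Alb. Quantile normalization, which assigns the top ranks of every library nearly the same values by construction, gave -0.03 to 0.15. None of the 9 had an unadjusted p under 0.05. Their 95% intervals all lay within 1.5-fold. Stressed saline libraries held 14.9% ± 0.157 of the reads on these rows and unstressed ones 19.95% ± 2.32 (SD, n = 3).

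**Figure D5:**
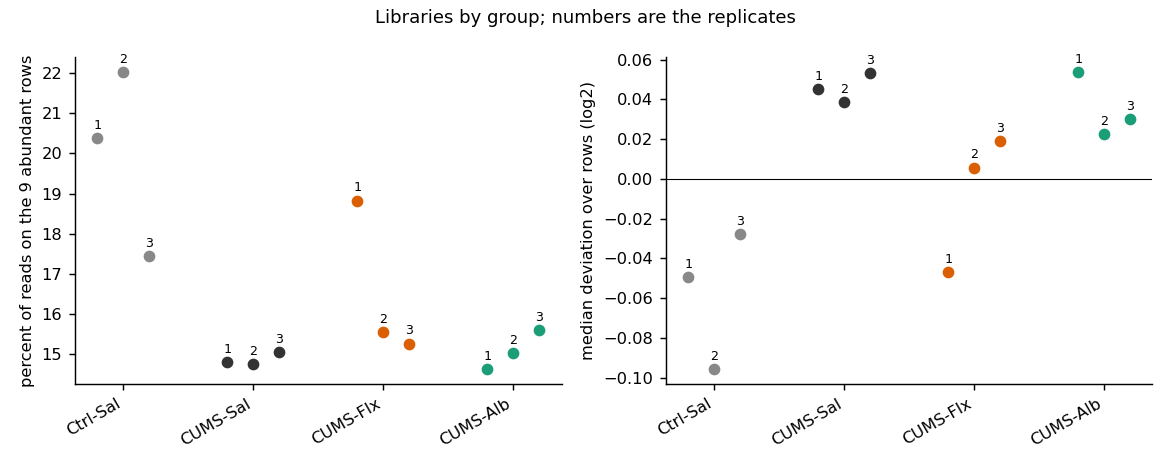
Left, percent of reads on the 9 most abundant rows in each library; right, the median over tested rows of the library's log2 deviation from the mean of all libraries. CUMS-Flx replicate 1, at 18.8% and -0.05, lies apart from the other drug libraries.

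Counts are given by transcript length as a description, with no test of the difference between length classes. Of 2174 rows up to 1000 bp long, 100 (4.60%) were higher and 66 (3.04%) lower in CUMS-Alb at an unadjusted p under 0.05. Of 2442 rows over 4000 bp, 110 (4.50%) were higher and 3 (0.123%) lower, beside 4.05% and 0.931% of all rows. With median deviations set to 0 these counts were 71 and 103 for the short rows and 70 and 15 for the long ones. The median difference was 0.00 and 0.06 log2 units, and -0.04 and 0.02 with the deviations at 0. Without CUMS-Flx replicate 1 the counts were 79 and 37 against 40 and 3, with medians of 0.00 and 0.04.

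The reads on rows up to 1000 bp, outside the 9 abundant ones, made up 5.38% ± 0.0502 for CUMS-Alb and 5.62% ± 0.251 for CUMS-Flx (SD, n = 3; p = 0.2 by the same exact permutation test, 0.3 after adjustment). The CUMS-Flx libraries held 5.88%, 5.61% and 5.37% and the CUMS-Alb libraries 5.44%, 5.34% and 5.37%, so the groups overlapped. CUMS-Flx replicate 1 was again the highest.

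By level, likewise with no test between classes, the rows of 1 to 5 FPKM had the largest share at an unadjusted p under 0.05, 6.50%, and the rows of 100 FPKM or more the smallest, 3.23%. Of 711 rows of 100 FPKM or more, 9 (1.27%) were higher and 14 (1.97%) lower in CUMS-Alb. Of 4326 rows of 1 to 5 FPKM, 244 (5.64%) were higher and 37 (0.855%) lower, beside 4.05% and 0.931% of all rows. With median deviations set to 0 these counts were 5 and 33 for the abundant class and 156 and 65 for the scarce one. The median difference passed from 0.07 log2 units at 1 to 5 FPKM to -0.02 at 100 FPKM or more, and from 0.03 to -0.06 with the deviations at 0. Without CUMS-Flx replicate 1 the counts were 156 higher and 35 lower at 1 to 5 FPKM and 3 and 3 at 100 FPKM or more.

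Transcribed loci without an Ensembl ID, of which 1346 were tested, are set beside the 13907 rows with one, with no test of the difference. At an unadjusted p under 0.05, 55 were higher and 11 lower in CUMS-Alb (4.90% in all), against 562 and 131 (4.98%) of the rows with an ID. They were scarcer, with a median of 1.35 FPKM against 9.36, and less closely bounded, with 71.1% of intervals within 1.5-fold against 86.7%. Among rows under 5 FPKM, 4.70% of those without and 6.52% of those with an ID had an unadjusted p under 0.05, and the shares within 1.5-fold were 67.2% without and 68.8% with an ID. These loci took 2.15%, 2.24% and 2.19% of the reads in CUMS-Alb and 2.09%, 2.14% and 2.15% in CUMS-Flx (p = 0.2 by the exact permutation test, 0.3 after adjustment).

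Compared with stressed saline rats, neither drug group had a called row by limma. Calls were 0 of 15253 rows (0%) for CUMS-Alb against CUMS-Sal, with 559 (3.66%) at an unadjusted p under 0.05 and 1716 (11.3%) without overlap. They were 0 (0%) for CUMS-Flx against CUMS-Sal, with 1523 (9.98%) and 2726 (17.9%). The median deviation was -0.05 log2 units in CUMS-Flx replicate 1 and 0.04 to 0.05 in the CUMS-Sal libraries. Counts against CUMS-Sal were made only on the values as deposited, with all libraries, so these shares do not rank the drugs. Over the 617 rows higher in CUMS-Alb than in CUMS-Flx, the median log2 difference from CUMS-Sal was 0.07 in CUMS-Alb and -0.25 in CUMS-Flx, and over the 142 lower rows -0.11 and 0.16. From Ctrl-Sal the medians were 0.25 in CUMS-Alb and -0.07 in CUMS-Flx over the 617 rows, and -0.17 and 0.09 over the 142. These rows were chosen on the drug libraries, and the comparisons share their saline libraries, so the values are given side by side only.

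The spread between replicates was small in both drug groups. The median SD over rows was 0.09 log2 units in CUMS-Alb and 0.11 in CUMS-Flx, against 0.11 in CUMS-Sal and 0.15 in Ctrl-Sal. CUMS-Flx spread more than CUMS-Alb in 57.5% of rows. Depth, as recovered from the FPKM values, was 15423401 to 17226464 reads in CUMS-Alb and 16725258 to 18109623 in CUMS-Flx. Ctrl-Sal replicate 2 was the library least like the others, with a median correlation of 0.977 against at least 0.989, and it enters the drug comparison through the shared estimate of the spread and the filter on the mean. Without it 2 rows were called between the drugs, ENSRNOG00000019050 and Novel00085.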

How the data were processed

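The authors deposited 1 table of FPKM values, 28959 rows in 12 library columns; its header names no unit, and FPKM was read from the values. Per the submitters' processing notes, TopHat2 and rn6 were used; the read counter, annotation release, strand setting and origin of the rows without an Ensembl ID were not given in the sources used here. Overlapping genes and near-identical copies could not be set apart.

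Lengths and whole reads were recovered by finding, for each row, the smallest whole length at which every library's reads were whole (within 0.0001 of a read, widened slightly for large counts); this succeeded for 22737 of 22737 rows above 0 (100%). Reads of sparse rows can be understated by a common factor. Recovered library totals were 14735953 to 18109623.

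Values were tested as log2(FPKM + 0.5), which understates changes of low rows, with limma 3.58.1 (trend and robust settings) in R 4.3.3, fitting all 12 libraries with 1 coefficient per group. Called rows are those whose p, adjusted by Benjamini and Hochberg's method over 15253 rows, was under 0.05. Shares were compared by exact permutation (scipy 1.17.1). Alternatives changed the scaling, the value added, the filter, the groups in the fit and the limma settings, left out 1 library at a time, or used limma-voom on recovered reads. The steps were checked on simulated data. Intervals on reads cover counting error only.

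Rows, lists and tests were chosen with earlier results of these data known. The rule for named rows took called rows, then rows called in at least 2 alternatives, then rows of smallest p whose groups do not overlap. It asked for symbols. With 0 IDs matched it was applied to IDs, at most 2 per direction. Novel00085 was named as a row called in at least 2 alternatives. It was called without Ctrl-Sal replicate 2, with only the 3 stressed groups, and with only CUMS-Alb and CUMS-Flx. The first and second of these fits were chosen after seeing the data. Without them Novel00085 would not have met this part of the rule. The gene and marker lists, and the share of mitochondrial mRNAs, could not be computed; the 9 most abundant rows were used instead of the latter. Figures used matplotlib 3.10.9.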

Additional observations from a re-analysis of the deposited data

How the results depend on the processing

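The count of 1 called row held in 12 of 20 alternatives. It was 0 with a mean of at least 5 FPKM, which removes ENSRNOG00000019050 by its level, 2 with only CUMS-Alb and CUMS-Flx in the fit, and 3 with only the 3 stressed groups, a setting chosen after seeing the data. Leaving out 1 library gave 0 to 3: 3 and 2 without CUMS-Alb replicates 1 and 2, 0 without CUMS-Alb replicate 3 (517 rows higher and 119 lower at an unadjusted p under 0.05), 2 without CUMS-Flx replicate 1, and 2 without Ctrl-Sal replicate 2. The cause was not tested for these. Limma-voom on recovered reads called 1 row. No named row changed direction in any alternative that tested it. The share of reads on the 9 abundant rows differed by -1.46 percentage points (CUMS-Alb minus CUMS-Flx), by -0.32 without CUMS-Flx replicate 1.

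Replicate numbers are shared between groups. The deviations of same-numbered CUMS-Alb and CUMS-Flx libraries correlated at -0.09, 0.01 and -0.09 across rows, and those of different-numbered ones at -0.01 to 0.10. Deviations from the mean of 3 libraries depend on each other, so these values cannot settle whether the numbers mark a pairing. With the replicate block 1 row was called, and 570 were higher and 125 lower at an unadjusted p under 0.05. Intervals were widest for rows under 5 FPKM or up to 1000 bp; the part of depth in this was not tested. The settings meant for the share of mitochondrial mRNAs were run on the 9 abundant rows.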
